A study of Mus musculus with 2 samples.

Results

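The genes described here are protein-coding mouse genes that, in at least 1 transcript, share bases near the 3' end with another gene. They come from the gene annotation of a cochlear single-cell series. A gene was taken when the last 500 exonic bases of any of its transcripts, called its 3' window, overlapped an exon of a gene with another identifier on the same strand by at least 1 base. Genes of the clustered protocadherins, which share their last exons by design, were left out. By this rule 677 of 21990 protein-coding genes (3.08%) had a shared 3' window. With the protocadherin clusters kept, the number was 714 of 22048 (3.24%), 37 of them protocadherin genes. The genes were thus chosen by the number of shared bases in the annotation, so those numbers describe the choice and are given without a test.

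The series compared 2 libraries of cochlear cells from Myo15-Cre;Ai14 mice at postnatal day 8, in which cells with a history of the hair cell gene Myo15 make the red protein tdTomato. The GFP library came from cochleae given Anc80-GFP virus and the Ikzf2 library from cochleae given Anc80-Ikzf2 virus, with 1 library for each. Cells with tdTomato were sorted and captured with a droplet kit that reads the 3' ends of polyadenylated RNA. The values below come from the annotation deposited with the series, on mouse assembly GRCm38, and hold no measurement of either library. Expression, depth and cell numbers of the 2 libraries, and any difference between GFP and Ikzf2, were not analysed here.

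A messenger RNA ends where the transcript is cleaved and polyadenylated, usually a short way downstream of the hexamer AATAAA or its variant ATTAAA. Neighbouring genes on a strand can share this end in several ways. In a readthrough transcript, transcription runs past the end of an upstream gene and splicing joins its exons to those of a downstream gene. In a nested pair, 1 gene lies within the span of another. In families such as Ugt1a, the UDP-glucuronosyltransferases that attach glucuronic acid to bilirubin, steroids and drugs, alternative first exons are spliced to common last exons. A 3' library reads the last stretch of a transcript, so a read in exons common to different genes cannot be assigned to 1 of them by its position alone. How many reads of the GFP and Ikzf2 libraries lay in such exons was not analysed here.

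The sequences below show the forms that sharing took. Sequences are those of GENCODE release M21 transcripts with the same identifier, version and length, on GRCm38, written 5' to 3' along the gene's strand. The first set is the mitochondrial overlap, where no intron is involved and the shared bases are read in different frames. The end of mt-Atp8 (chrMT:7910-7969, + strand) and the start of mt-Atp6 (chrMT:7927-7986, + strand), which encode subunits of the ATP synthase, have 43 bases in common, in capitals.
mt-Atp8: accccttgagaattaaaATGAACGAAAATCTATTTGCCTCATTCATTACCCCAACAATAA
mt-Atp6: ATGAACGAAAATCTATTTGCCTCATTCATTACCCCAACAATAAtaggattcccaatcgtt
The end of mt-Nd4l (chrMT:10144-10173, + strand) and the start of mt-Nd4 (chrMT:10167-10196, + strand), subunits of respiratory complex I, have 7 bases in common.
mt-Nd4l: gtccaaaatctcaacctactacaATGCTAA
mt-Nd4: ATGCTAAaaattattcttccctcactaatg

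The second set shows readthrough junctions, chosen because both genes of each pair are known. Nme1 and Nme2 encode nucleoside diphosphate kinases and lie in tandem on chromosome 11, and Gm20390 joins them. Each line gives the 24 bases before and the 24 bases after a splice junction, so the positions span the intron. Bases of the downstream gene's second exon are in capitals. Nme1 is read across chr11:93959490-93960691, Gm20390 across chr11:93955601-93960691 and Nme2 across chr11:93955601-93955849, all on the - strand.
Nme1: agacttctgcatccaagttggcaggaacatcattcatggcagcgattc
Gm20390: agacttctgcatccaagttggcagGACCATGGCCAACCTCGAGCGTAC
Nme2: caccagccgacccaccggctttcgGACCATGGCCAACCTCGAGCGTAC
Gm20390 has the last bases of an Nme1 exon on the left and the first bases of an Nme2 exon on the right. The same layout joins Tmem189, a plasmanylethanolamine desaturase, to Ube2v1, a ubiquitin-conjugating enzyme variant, through Gm20431. Tmem189 is read across chr2:167644159-167644787, Gm20431 across chr2:167617954-167644787 and Ube2v1 across chr2:167617954-167631963, on the - strand.
Tmem189: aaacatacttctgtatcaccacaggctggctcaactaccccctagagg
Gm20431: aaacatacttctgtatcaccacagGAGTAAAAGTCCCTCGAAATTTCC
Ube2v1: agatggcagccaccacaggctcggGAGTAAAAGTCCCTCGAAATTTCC

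The last set shows the Ugt1a family on the + strand of chromosome 1, with the end of the first exon in lower case and the common second exon in capitals. The first exon shares no base with another gene of the family in Ugt1a1, Ugt1a2 and Ugt1a9. In Ugt1a6a 859 of its 954 bases are exonic in another gene of the family. Ugt1a1 is read across chr1:88212848-88215067, Ugt1a2 across chr1:88201477-88215067, Ugt1a6a across chr1:88139308-88215067 and Ugt1a9 across chr1:88071655-88215067.
Ugt1a1: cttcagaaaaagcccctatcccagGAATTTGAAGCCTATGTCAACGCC
Ugt1a2: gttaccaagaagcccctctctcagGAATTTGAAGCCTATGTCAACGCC
Ugt1a6a: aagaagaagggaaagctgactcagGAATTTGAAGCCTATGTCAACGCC
Ugt1a9: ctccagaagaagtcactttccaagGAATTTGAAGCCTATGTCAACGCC

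The 677 genes formed 924 pairs of a gene and a partner whose exon lay in its 3' window, or 596 distinct pairs of genes. In 328 of the 596 (55.0%) each gene lay in the other's 3' window, and in 268 (45.0%) the sharing touched the window of 1 gene only. The partner was protein-coding in 910 of 924 pairs (98.5%), a long intergenic RNA in 9 and an antisense gene in 5. Most genes had a single partner (568 of 677, 83.9%), 82 had 2 and 27 had 3 or more. The most partners, 25 each, belonged to Gm37013, Gm37388 and Gm42416, long models on chromosome 18 that run through the protocadherin clusters. Protocadherin genes were left out of the 677 but could still be partners. The 9 Ugt1a genes had 8 partners each. Shares of pairs given below therefore weigh such loci more than others.

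Each pair was put in 1 of 3 classes by the layout of its genes. A gene was called readthrough-like when 1 of its transcripts overlapped exons of at least 2 other protein-coding genes on its strand whose spans did not overlap each other, and a pair was readthrough-like when either gene was. Other pairs were nested when the span of 1 gene lay within that of the other, and tandem when the spans overlapped in part. A gene with pairs of more than 1 class was counted once, in the first that applied of readthrough-like, nested and tandem. Counted so, 342 of the 677 genes (50.5%) were in readthrough-like pairs, 188 (27.8%) in tandem pairs and 147 (21.7%) in nested pairs. Among the 342, 132 were themselves the readthrough-like gene and 210 were genes that such a model overlaps.

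The classes differed in how much of the window was shared. The largest number of shared bases in any window of a gene had a median of 497 in readthrough-like genes (lower and upper quartile 302 and 500), 500 in nested genes (345.5 and 500) and 214.5 in tandem genes (120.5 and 465). Over all 677 genes it ran from 1 to 500 with a median of 458. Counted over all exons of a gene, the median share of exonic bases that also belonged to another gene was 60.88% in readthrough-like, 77.93% in nested and 11.52% in tandem genes.

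**Figure D1:**
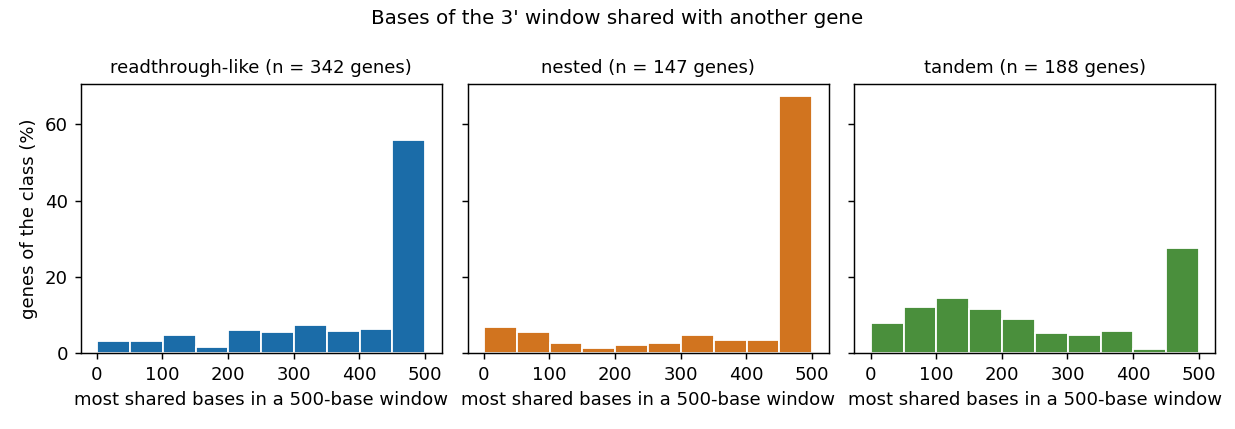
Histograms of the largest number of 3' window bases shared with another gene (x axis, bins of 50 bases) against the percent of genes in each class (y axis), for 342 readthrough-like, 147 nested and 188 tandem genes. The tallest bar of each class is the last one, and tandem genes have a further broad group below 250 bases. The median over all 188 tandem genes is 214.5.

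Sharing reached the very end of a transcript in most pairs. The last base of a transcript of the gene was also an exonic base of the partner in 585 of 924 pairs (63.3%), in 76.2% of nested, 64.1% of readthrough-like and 49.1% of tandem pairs. Ends of pairs were taken from all transcripts, including those tagged because their 3' end was not found (350 of 3148, 11.1%). The same 3' end, to the base, was found in 139 pairs (15.0%), in 38.3% of nested, 9.59% of readthrough-like and 4.55% of tandem pairs. Genes with many partners, such as the Ugt1a genes, enter these shares many times. By gene, 110 of 677 (16.2%) had the same 3' end as a partner. Where the last base was free, the nearest shared base lay a median of 223 bases upstream of the end (339 pairs, quartiles 90 and 341.5). Base by base, the share of readthrough-like genes with that base shared in at least 1 transcript rose from 64.62% at the last base to 87.54% at base 301 from the end. In nested genes it went from 74.83% to 87.31% at base 500, and in tandem genes from 46.81% to 63.51% at base 451.

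**Figure D2:**
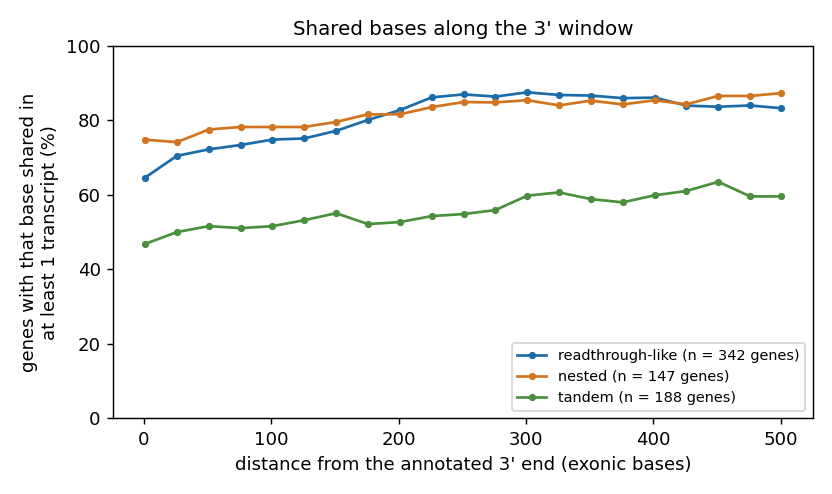
Percent of genes whose base at a given distance from the 3' end of a transcript model is shared with another gene in at least 1 transcript (y axis) against that distance in exonic bases (x axis), for the 3 classes. At each distance only genes with a transcript that long are counted. The tandem line lies below the others at every distance, from 46.81% at the last base.

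Sharing was often a property of some transcripts of a gene and not of others. Every transcript window was touched in 336 of 677 genes (49.6%), while 341 (50.4%) had at least 1 transcript with a window free of other genes. The 336 include the 188 genes (27.8%) with 1 transcript, whose only window is touched by the rule itself. At least 1 window was wholly covered in 320 genes (47.3%), and every window was wholly covered in 167 (24.7%). In 107 genes (15.8%) no exonic base at all was free of other genes. Of the 3148 transcripts of these genes, 1717 (54.5%) had a touched window. By transcript type this was 65.9% of nonsense-mediated decay models, 55.9% of protein-coding models, 53.3% of processed transcripts without a reading frame and 45.4% of retained-intron models. All these transcripts belong to genes chosen for a touched window, so the shares are raised by the rule. They do not describe transcript types in general.

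The genes most relevant to the cochlea are described first. Of 121 genes listed as deafness genes from general knowledge, 1 (0.826%) had a shared window, beside 3.08% of all protein-coding genes. This was Gata3, which encodes a zinc finger transcription factor needed for inner ear development (chr2:9857078-9890034, - strand). It has 6 transcripts, and 1 of them, a processed transcript of 344 bases, shares 77 bases with 9230102O04Rik, a clone-named protein-coding gene that lies within its span. The 77 bases are non-coding in both genes, and the nearest of them lies 151 bases from the end of that short model. The main coding transcript of 3215 bases shares none of its last 500 bases with another gene.

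A further gene, chosen after its values were seen, was Ctbp2, whose locus also encodes RIBEYE, the main protein of synaptic ribbons (chr7:132987563-133124354, - strand). Of its 20 transcripts 9 have bases of Fgfr2, a fibroblast growth factor receptor gene downstream, in their 3' window, with 3 to 314 bases shared. All the shared bases are non-coding. Each of the 9 is a processed transcript, or a model whose 3' end was tagged as not found, so that it stops where its evidence stopped. The longest coding model, of 3604 bases, has a free window. Atp6v0a4, a proton pump subunit linked to deafness with renal acidosis and also picked after its values were seen, shares 108 bases with D630045J12Rik in 1 retained-intron model out of 7 transcripts.

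**Figure D3:**
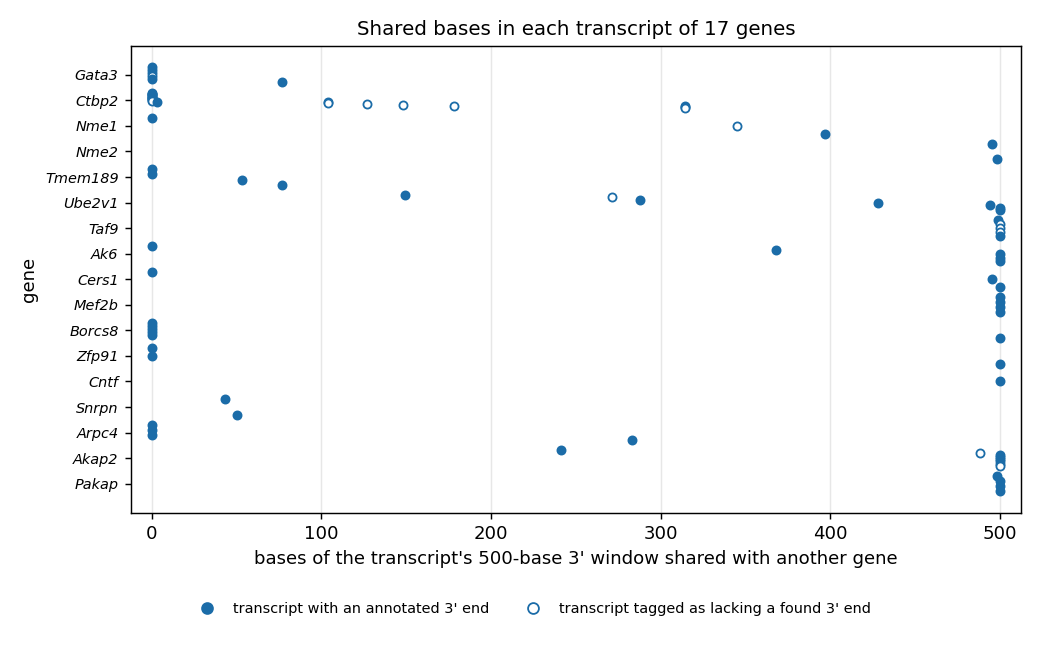
Bases of the 500-base 3' window shared with another gene (x axis) for each transcript of 17 genes (y axis). Filled points are transcripts with an annotated 3' end and open points are those tagged as lacking one. Most Gata3 and Ctbp2 transcripts lie at 0, while those of Mef2b and Pakap lie near 500.

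Readthrough-like genes carried few gene names of their own. The annotation held 136 of them, of which 114 (83.8%) had a clone name such as Gm plus a number. Of all 677 genes 165 (24.4%) had a clone name, beside 2569 of 21990 protein-coding genes (11.7%). An upstream and a downstream gene could be assigned to 132 of the 136. These are not the same 132 as the readthrough-like genes among the 677, since 128 genes are in both sets and 4 are in each alone. The gap between these 2 genes had a median of 5495 bases (quartiles 1150 and 12717). It ran from 12 bases between Atrip and Trex1, which Gm42641 joins, to 4273830 bases between Usp10 and Galnt2, which Gm20388 joins.

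Most of these 132 models joined exons of their neighbours without a new exon between them. In 105 (79.5%) an exon of the upstream gene was spliced directly to an exon of the downstream gene. The donor of that junction was a donor of the upstream gene in 73 of 105 (69.5%), and its acceptor was an acceptor of the downstream gene in 87 (82.9%). The upstream stop codon lay in the exons of 47 of the 132 (35.6%), and the downstream start codon in those of 64 (48.5%). The transcript was annotated as protein-coding in 72 and as a target of nonsense-mediated decay, the pathway that degrades messages with a premature stop codon, in 54. It was read in the frame of both genes in 40 (30.3%), of the upstream gene only in 63 (47.7%), of the downstream gene only in 16 and of neither in 13. These counts use 1 transcript of each model. Any same-frame base was enough, as in Gm20449 with 3 bases in frame with its upstream gene. Retained-intron models such as Gm42641, which have no reading frame, count under neither.

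Both sides of a readthrough locus had shared windows. The upstream gene was among the 677 in 105 of 132 cases and the downstream gene in 111. The last base of a transcript was shared with the readthrough-like gene in 54 of 104 upstream genes (51.9%) and in 73 of 108 downstream genes (67.6%). Only 19 of the 132 models (14.4%) ended exactly at an annotated end of the downstream gene.

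Nme1, Gm20390 and Nme2 show both sides within a single locus. Gm20390 (chr11:93949819-93968293, - strand) has 991 exonic bases, and all of them belong to Nme1 or Nme2. It has 341 coding bases in frame with Nme1 and 456 in frame with Nme2. The main Nme1 transcript of 3181 bases has a free window, because its long last exon is skipped in Gm20390, while 2 short coding models share 345 and 397 bases. Both Nme2 transcripts share nearly the whole window, 495 and 498 bases, and the nearest shared base lies 3 bases from the end. The gap between Nme1 and Nme2 is 719 bases.

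At the Tmem189 locus the pattern was alike. Gm20431 (chr2:167607850-167661496, - strand) has 2367 exonic bases, none of them free of Tmem189 and Ube2v1, and it holds neither the upstream stop codon nor the downstream start codon. Of 4 Tmem189 transcripts 2 are free and the other two, retained-intron models, share 53 and 77 bases. All 7 Ube2v1 transcripts share between 149 and 500 bases.

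**Figure D4:**
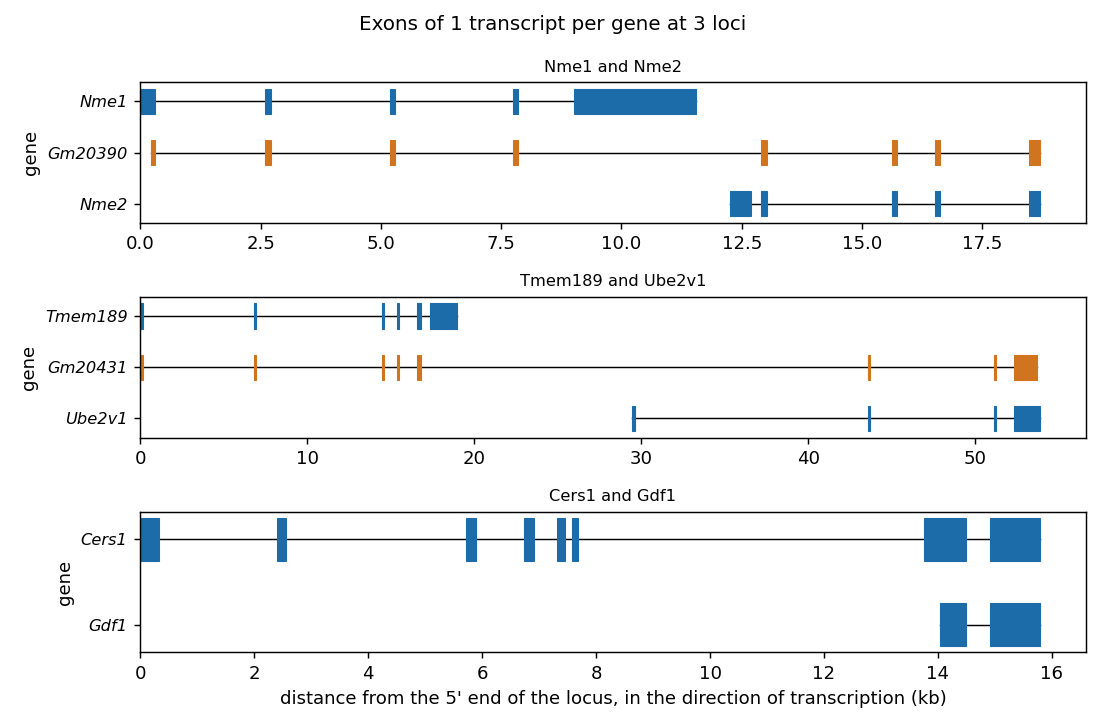
Exons (boxes) of 1 transcript per gene at 3 loci, drawn to scale along the distance from the 5' end of the locus in kb (x axis), with clone-named readthrough-like genes in orange. Gm20390 and Gm20431 skip the last exon of the upstream gene, and both exons of Gdf1 lie within the last 2 exons of Cers1.

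Several readthrough pairs known by a joined name were found only through such a joining gene. Of 42 pairs listed from general knowledge, 38 had both symbols in the annotation. A direct overlap in a window joined 11 of the 42 and a readthrough-like gene joined 9 more. The 11 include Tnfsf12 and Tnfsf13 each with Tnfsfm13, and the 9 include Tnfsf12 with Tnfsf13, so that locus counts repeatedly. Mef2b was listed with Mef2bnb, a symbol absent from the annotation, so its overlap with Borcs8 is in neither count. Iqcj and Schip1 are also in neither count, although a readthrough-like Schip1 entry has Iqcj upstream and the other Schip1 entry downstream. The 9 were Bcl2l2 and Pabpn1 (Gm20521), Cox16 and Synj2bp (Gm20498), Isy1 and Rab43 (RP23-4F16.12), Jmjd7 and Pla2g4b (Gm28042), Mia and Rab4b (Gm21983), Nme1 and Nme2, Rbm14 and Rbm4 (Gm21992), Tmem189 and Ube2v1, and Tnfsf12 and Tnfsf13 (Tnfsfm13). Bcl2l2, an anti-apoptotic protein, had 2 of 4 transcripts touched with at most 328 bases shared. Pabpn1, the nuclear poly(A)-binding protein, had all 9 touched, 2 of them wholly covered. Rab4b, a small GTPase of endosome recycling, also had all 8 transcripts touched, and so did all 4 of Mia, a secreted cartilage protein, though none of Mia was wholly covered. Rbm14, an RNA-binding coactivator, had 1 of 3 touched, whereas Rbm4, a splicing regulator, had 4 of 6, each wholly covered.

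Tnfsfm13 joins the cytokines Tnfsf12 (TWEAK) and Tnfsf13 (APRIL) on chr11:69682577-69696098, - strand. Of the 2 transcripts of Tnfsf12, the full model of 1435 bases has a free window and a short model with no found 3' end shares 254 bases. Both Tnfsf13 transcripts are wholly covered at 500 bases. Gcom1 likewise spans Myzap, a junction protein of heart muscle, and Polr2m, a subunit of an RNA polymerase II complex. All 4 Gcom1 windows are wholly covered, while 1 of 3 Polr2m transcripts is touched, by 75 bases.

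Some readthrough-like models carried a full gene name. Pakap joins the paralemmin gene Palm2 to the kinase-anchoring gene Akap2 (chr4:57568179-57896984, + strand). All 8 Akap2 transcripts have a shared window, with 241 to 500 bases, and the annotated end of Pakap is also an end of Akap2. In Palm2 2 of 4 transcripts are touched, by 414 and 423 bases. For Apoc2, an activator of lipoprotein lipase, and Atn1, a transcriptional corepressor, the readthrough-like gene has the same symbol as the gene it overlaps. The second Apoc2 entry begins at Apoc4 and has no free exonic base among its 765. The second Atn1 entry ends in Grcc10 and has 83 free bases out of 4359. Ccdc142 shows the same doubling, with a second entry that runs into Mrpl53, a mitochondrial ribosomal protein gene.

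The definition also caught ordinary genes. Rhot2, a mitochondrial GTPase, Vps51, a subunit of a vesicle tethering complex, and Cdhr4, a cadherin-related gene, met it because neighbouring genes reached their exons from both sides. mt-Atp6 met it because it overlaps mt-Atp8 by 43 bases and mt-Co3 by 1. In GENCODE M21, 121 of the 132 models with an upstream and a downstream gene (91.7%) carry a readthrough tag, 7 have none and 4 are absent. The 7 without a tag are 4930516K23Rik, Cdhr4, Gm42419, Gprasp1, Rhot2, Vps51 and mt-Atp6, and the absent ones are Gcom1, Gm20499, Gm42641 and Gm43796.

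Nested pairs held the most complete overlaps. Taf9, a subunit of the general transcription factor TFIID, and Ak6, an adenylate kinase, share exons on chromosome 13. All 5 Taf9 transcripts share 499 or 500 bases, and 4 of 5 Ak6 transcripts share 368 to 500, with 1 free. The bases coding in both genes are all in the same frame. Mef2b, a transcription factor of the MEF2 family, lies inside Borcs8, a subunit of a lysosome-positioning complex. All 4 Mef2b transcripts are wholly covered, whereas 1 of 6 Borcs8 transcripts, of 1337 bases, is. Scamp4, a secretory carrier membrane protein, lies within Adat3, a subunit of a tRNA deaminase. Both Scamp4 transcripts and 1 of 2 Adat3 transcripts are wholly covered, and the coding bases of Scamp4 there are non-coding in Adat3.

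Cers1, a ceramide synthase of neurons, and Gdf1, a TGF-beta family ligand of left-right patterning, are a pair long known from a common transcript. Gdf1 has a single transcript of 1349 bases (chr8:70329817-70331587, + strand), and each of its exonic bases is exonic in Cers1. Of 3 Cers1 transcripts, 2 share 495 and 500 bases of their window and a retained-intron model is free. Within the windows 390 shared bases are annotated as coding in both genes and in the same frame. In the transcript Cers1-001 itself the last exon, of 889 bases, holds 0 coding bases, while in Gdf1 it holds 779.

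Cntf, a neurotrophic cytokine, and Zfp91, a zinc finger ubiquitin ligase, have the same 3' end on chromosome 19. The single Cntf transcript is wholly covered, and 1 of 3 Zfp91 transcripts, a nonsense-mediated decay model of 3221 bases, runs into it. The windows share 262 coding bases of Cntf and none that is coding in Zfp91. Eif4ebp3, a repressor of translation initiation, lies inside Ankhd1, a large ankyrin repeat protein gene, and 2 of 15 Ankhd1 transcripts are wholly covered by it. Here 177 shared bases are coding in both genes, all in different frames. Snurf, the upstream reading frame of an imprinted transcript, has 216 bases, all of them within exons of Snrpn and all coding in Snurf but in no Snrpn model. Snrpn, a spliceosome protein gene, itself shares 43 and 50 bases with Gm38393 only.

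Tandem pairs shared fewer bases, and those were less often coding in both genes. Arpc4, a subunit of the actin-nucleating Arp2/3 complex, shares 283 bases with Ttll3, a tubulin glycylase, in 1 of 4 transcripts. Sept5, a septin of nerve terminals, has a single transcript whose window is wholly covered by exons of Gp1bb, a platelet adhesion receptor subunit downstream, while Gp1bb is not among the 677. Tmed7, a cargo receptor of the secretory pathway, runs into Ticam2, a Toll-like receptor adaptor, in 1 of 3 transcripts. Arhgdig has 1 of 5 transcripts that runs into Pdia2, a protein disulfide isomerase, whose 4 transcripts share 370 to 500 bases. In B4galt2, a galactosyltransferase gene, 1 of 7 transcripts runs to the end of Ccdc24. In 131 of 220 tandem pairs (59.5%) the partner lay downstream and in 89 upstream.

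What the shared bases encoded differed between the classes. Bases coding in both genes were shared in 530 of 924 pairs (57.4%), in 70.6% of readthrough-like, 54.7% of nested and 30.5% of tandem pairs. They were read in the same frame in 467 pairs (50.5%) and only in different frames in 63 (6.82%). Counted in bases over all pairs, 167417 of 393390 shared bases (42.6%) were coding in both genes, and 161344 of these (96.4%) were in the same frame. In 223 pairs (24.1%) the bases were coding in only 1 gene or in separate parts, as in Scamp4 and Adat3. In 171 pairs (18.5%) they were coding in neither gene, in 8.16% of readthrough-like, 30.8% of nested and 29.5% of tandem pairs. By gene, 378 of 677 (55.8%) shared bases coding in both genes, and 78 (11.5%) shared bases read in different frames.

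**Figure D5:**
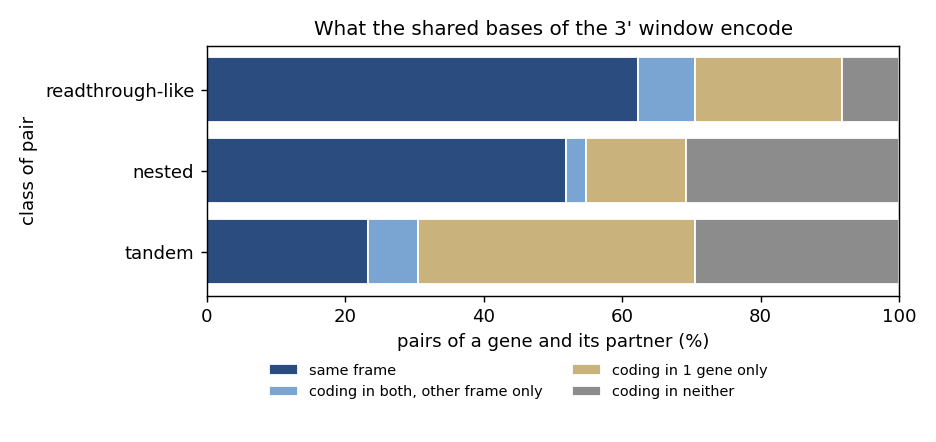
Percent of pairs (x axis) in each class (y axis) whose shared window bases are coding in both genes with some in the same frame, coding in both in different frames only, coding in 1 gene or in separate parts, or coding in neither. Same-frame sharing falls from 62.2% of readthrough-like to 51.9% of nested and 23.2% of tandem pairs. Each pair counts once, so genes with many partners weigh more.

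The Ugt1a genes were the largest linked group, with 9 of 9 genes (chr1:88055388-88220002, + strand). Exons 2 to 4 have 132, 88 and 220 bases in every gene and are wholly shared. Exon 5 has 871 bases in 6 genes, 878 in Ugt1a8 and Ugt1a10 and 1876 in Ugt1a7c, of which 878 are shared. The first exons, of 879 to 954 bases, share no base with another gene of the family in 8 of the 9. In Ugt1a6a 859 of the 954 bases of the first exon are exonic in another gene of the family. Each of the 9 genes has the other eight as partners. Ugt1a1, which clears bilirubin, has a single transcript with no free window base, and the same holds for Ugt1a2, Ugt1a5, Ugt1a8 and Ugt1a9.

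Linked by shared windows, the 677 genes fell into 331 groups, of which 100 held a single gene, 134 held 2, 87 held 3 and 10 held 4 or more. A single gene arises where the partner's own window is free. The larger groups other than Ugt1a and a group of Tulp2 entries included readthrough-like models. On chromosome 9 Uba7, Gm20661, Cdhr4, Gm20662 and Ip6k1 followed each other, from a ubiquitin-like activating enzyme to an inositol phosphate kinase. On chromosome 7 Prrt2, Gm42742, Pagr1a, Pagr1b and Mvp formed a chain in which all 7 Prrt2 transcripts were touched, 5 of them wholly covered, while 1 of 3 transcripts of Mvp, the major vault protein, was touched by 346 bases. On chromosome 6 Gm5111, Repin1 and Zfp775 lay with RP24-124B23.14 and RP24-124B23.17.

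The other groups of 4 also mixed named genes with clone-named models. Zfp524, Zfp865 and Ccdc106 lay with RP23-414I24.8, and Wdr90, Rhot2 and Rhbdl1 lay with Gm20683. Phyhd1 and Nup188 lay with Gm28035 and Gm28038, and Zfpl1, Vps51 and Tm7sf2 lay with Gm28374. AK010878 and Moap1 lay with Gm20604 and Gm28051. The last group held AC151602.1 and 3 entries all named Tulp2, a tubby-like gene.

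Such doubled symbols formed a group of their own, described after the values were seen. A partner with the same symbol but another identifier was found for 59 genes under 33 symbols, among them Rp1, Cd37, Itgam, Ltbp4, Ntn5, Nova2, Tead2, Tgfb1i1 and 10 olfactory receptors. The 2 entries of Cd37, a tetraspanin of B cells, each have 1 transcript, with 231 and 500 shared bases in the same frame. Ltbp4, which binds latent TGF-beta, has an entry of 9 transcripts with 1 touched by 345 bases, and a second entry of 1 transcript that is wholly covered. In M21, 28 of the 59 entries (47.5%) are absent, 31 are kept as protein-coding genes and in 0 of 65 pairs do both entries still have the same symbol.

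Partners that are not protein-coding were few. Hist2h2bb, a histone H2B gene without a 3' UTR in the annotation, shares 226 of its 381 bases with a long intergenic RNA of the same symbol. Onecut1, a homeobox transcription factor, shares 195 and 500 bases in its 2 transcripts with Gm20649. Pappa2, a protease that cleaves an IGF-binding protein, shares 259 bases with 1600012P17Rik in 1 of 6 transcripts, and N4bp2l1 shares 115 with Gm43598 in 1 of 7. Among genes with an antisense-annotated partner on the same strand, Acad9, an assembly factor of complex I, shares 34 to 451 bases with Gm43079 in 5 of 10 transcripts. Thtpa, a thiamine triphosphatase, shares 354 with Gm20687 in 1 of 4. Frs3, an adaptor of growth factor receptors, shares 69 with Tomm6os in 1 of 5.

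Gene families were touched to different extents beside the 3.08% of all genes. Of 1126 olfactory receptor genes 32 (2.84%) had a shared window, for example Olfr108, Olfr1134 and Olfr115. For 10 olfactory receptor symbols, Olfr108 among them, a partner is a second entry of the same symbol and not another receptor. Zinc finger genes named Zfp had 14 of 366 (3.83%), including Zfp456, Zfp512b and Zfp524. Mitochondrial ribosomal protein genes had 3 of 77 (3.9%), which were Mrpl53, Mrps24 and Mrps34. Trim genes, many of them ubiquitin ligases, had 4 of 69 (5.8%), with Trim16, Trim34a and Trim34b among them, and Tmem genes had 4 of 239 (1.67%), with Tmem184a, Tmem189 and Tmem239. Nduf genes, which encode parts of complex I, had 2 of 45 (4.44%), Cyp genes, the cytochrome P450 enzymes, 2 of 108 (1.85%), and Hist genes 1 of 68 (1.47%). Slc genes, the solute carriers, had 2 of 383 (0.522%). Cytosolic ribosomal protein genes had 0 of 103 and H2- histocompatibility genes 0 of 34. No test was made between families, since most counts are small.

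By chromosome the share ran from 1.34% on chromosome 12 (9 of 671 genes) to 4.27% on chromosome 7 (86 of 2012) among the nuclear chromosomes. On the mitochondrial chromosome it was 3 of 13 (23.1%), namely mt-Atp8, mt-Atp6 and mt-Nd4l.

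The annotated 3' UTR, read from transcripts of protein-coding type only, was shorter in these genes than in others. Its longest form had a median of 590 bases in 541 genes with one (quartiles 243 and 1453), beside 854 in 19345 other protein-coding genes (310 and 1842). Among genes without a clone name the medians were 665.5 and 906. No such 3' UTR was found for 136 of 677 genes (20.1%), beside 9.23% of the others. Genes with only nonsense-mediated decay or retained-intron models count as having none. The share without one was 59.1% in the 132 readthrough-like genes among the 677 and 10.6% in the remaining 545. The number of transcripts per gene had a median of 3 in these genes and 2 in others, and the number of distinct 3' ends likewise. Any transcript was enough for the rule, so the choice itself favours genes with more transcripts.

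The polyadenylation hexamer was looked for in the last 40 bases, as AATAAA or ATTAAA on the transcribed strand. Either word was present in at least 1 transcript of 457 of 624 genes with a matching sequence (73.2%), beside 13505 of 17801 other protein-coding genes (75.9%). It was present in 59 of 129 readthrough-like genes of the 677 (45.7%), in 177 of 207 genes that they overlap (85.5%), in 63.3% of nested and in 84.9% of tandem genes. Per distinct annotated end, the word preceded 208 of 674 ends whose last base was shared (30.9%) and 646 of 1696 free ends of the same genes (38.1%), beside 38.5% of 63471 ends of all protein-coding genes. A gene with more annotated ends has more chances to hold a word, and readthrough-like genes had a median of 1 distinct end beside 4 in the remaining genes of the 677.

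A second annotation of the same assembly, GENCODE M21, kept most of these overlaps. It holds 628 of the 677 identifiers (92.8%), beside 99.1% of all protein-coding genes. Of the 628, 587 (93.5%) have a shared window there too, and 782 of the 924 pairs (84.6%) remain. In M21 as a whole 1152 of 21971 protein-coding genes (5.24%) have a shared window, and 838 (3.81%) when partners are limited to the 3 biotypes of the deposited annotation. Its further partners include microRNA genes in 106 of 1503 pairs and snoRNA genes in 52. A protein-coding RefSeq gene of the same symbol exists for 22 of the 132 readthrough-like genes among the 677 (16.7%), beside 493 of the 545 remaining genes (90.5%) and 90.7% of other protein-coding genes. The match was by symbol alone, and 114 of all 136 readthrough-like genes have a clone name. The share thus depends on naming and does not show whether RefSeq holds the model.

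The rule's edges were as follows. The smallest overlaps inside it were 1 base between mt-Atp6 and mt-Co3, 2 bases between Gm20604 and Moap1 and 4 bases between Impa1, an inositol monophosphatase, and Gm38303. A window 10 bases longer would add 6 genes. These are AW146154, Agxt2, Fbxw10, Gm8206, Nmb and Rhbg, with 3 to 7 shared bases each.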

How the data were processed

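The data analysed were the authors' deposited gene annotation, a table of genome positions in bases (unit: other) for the whole series, following GRCm38 patch 4 per the file headers. It holds 0 columns of per-sample values. Cell Ranger 2.0.2 is named in the submitters' processing notes, with no role stated. Each of the 2 libraries, GFP and Ikzf2, has its group from the treatment label, and no value of them entered, so depth sets no precision here.

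Windows, overlaps, classes and frames were computed with Python 3.11.15 and NumPy 2.4.6, and figures drawn with Matplotlib 3.10.9. On simulated data the overlap was right for 200 of 200 genes. Clone names are Gm plus digits, names ending in Rik, and BAC, GenBank or EST names. M21 sequences were used for transcripts of equal identifier, version and length (78223 of 85117). Coding bases include the stop codon.

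The members, the lists and the rule for named genes were chosen with earlier results of these data known. That rule took list members, known pairs, per class and partner biotype the 4 genes with most shared bases, the 5 with most partners, groups of 4 or more, edge cases and 3 examples per family. No test was made, since the annotation has no replicates. Alternatives were other window lengths and overlaps, protein-coding transcripts or partners only, clone-named genes left out, other search lengths for the hexamer and M21 models. One gene is not reported here.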

Additional observations from a re-analysis of the deposited data

How the results depend on the processing

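Alternatives changed 1 choice at a time, and a count was called moved when it differed by more than 1.5 times, a percent when it left its binomial interval, and a median when it moved by more than the SD over genes. With clone-named partners left out, 443 of the 677 genes remained, 156 of them readthrough-like (342 before), 3 with a non-coding partner (14 before), and 216 shared bases coding in both genes (378 before). Protein-coding transcripts only gave 123 tandem genes (188 before). A window of 200 bases left 7 genes with a non-coding partner, and protein-coding partners only left 0 by construction. With AATAAA alone the hexamer was present in 62.0% of these genes and 65.2% of others, beside 73.2% and 75.9%. In others it was 71.3% within 30 bases and 77.4% within 50. The number of genes was 559 and 752 with windows of 200 and 1000 bases, 600 with at least 100 shared bases and 464 at the outermost 3' end only. Leaving out transcripts tagged as lacking a found 3' end, an alternative chosen after seeing the data, left 637. In all 65 alternative values stayed within those limits and 11 moved. Some of the 65 could not move, such as the 110 genes with the same 3' end as a partner, which lies in a window of any length. The tally is therefore no measure of stability. No paired analysis was possible because the file holds no value of a sample, and for the same reason no replicate could be left out.

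The main limit is that an annotation shows which bases genes have in common and not whether a transcript was made in cochlear cells. Readthrough-like models rest on single transcripts in many cases, and the class depends on the definition.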
